A study of Mus musculus with 23 samples.

Results

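The genes of neuropeptides and of histamine synthesis in the hypothalamus, 10 in all, were followed in db/db mice given celastrol or its vehicle: the opioid precursors Penk and Pdyn, the tachykinins Tac1 and Tac2, the kisspeptin precursor Kiss1, histidine decarboxylase (Hdc), and the precursors Vip, Adcyap1, Grp and Nts. They were chosen by name, each through a probe set that names that gene alone. All 10 were found, each with 1 such probe set, among 18704 genes measured. The study hybridised RNA of whole hypothalamus to 23 Affymetrix whole-transcript arrays. All mice, controls included, were male db/db mice 8 weeks of age, kept for 2 weeks on chow, and all received DMSO by intraperitoneal injection at 25 µl per day. Vehicle mice received DMSO alone for 6 h, 1 day or 4 days, with 4 arrays at each time. Celastrol mice received celastrol in DMSO for the same times, with 3 arrays at 6 h and 4 each at 1 day and 4 days. The labels give the celastrol dose as 250 µg/kg at 6 h, and give no clear dose for the later times. Celastrol is a plant triterpenoid known to lower food intake and body weight in obese mice with intact leptin signalling. The db/db mouse carries a defective leptin receptor, so it is obese and does not respond to leptin. No lean and no untreated group was analysed here, and no array batch is named in the sources used here. Arrays within a group are described as biological replicates, with no word on whether each holds 1 animal or a pool.

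Neuropeptides are made as long precursors, cut and packed into dense core vesicles, and act on G protein-coupled receptors. Many are made in small, well-defined groups of hypothalamic neurons. Enkephalins and dynorphins are opioid peptides acting mainly at delta, mu and kappa receptors. Neurons of the arcuate nucleus that make kisspeptin often also make neurokinin B (from Tac2) and dynorphin (from Pdyn), and drive the release of gonadotropin-releasing hormone. Histamine of the brain comes from neurons of the tuberomammillary nucleus, the only neurons with much Hdc, and promotes waking and reduces feeding. VIP and gastrin-releasing peptide (Grp) are made by neurons of the suprachiasmatic nucleus, the circadian clock, among other places. PACAP (from Adcyap1) is abundant in the ventromedial nucleus, and neurotensin (from Nts) in the lateral hypothalamus. Both have been tied to the control of feeding.

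Values are log2 units as the authors deposited them, on which a step of 1 is a doubling. Array medians lay between 8.57 and 8.64. All 22 of the hypothalamic marker genes were measured, among them Pmch at a mean of 13.05 and Hcrt at 12.81. The mean of the hypothalamic markers ran from 9.81 to 10.01 over the arrays, and that of 8 pituitary markers from 7.15 to 9.24. The spread of values over genes within an array also differed between groups, with a mean SD of 1.930, 1.948 and 1.895 in vehicle mice and 1.889, 1.915 and 1.912 in celastrol mice at 6 h, 1 day and 4 days. In these bulk samples, fewer cells of a type and less RNA per cell cannot be told apart.

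None of the 10 genes differed between celastrol and vehicle mice at any time after correction over all genes (limma, Benjamini-Hochberg adjusted p under 0.05). At 6 h 0 of 10 members passed, as did 0% of all genes tested. At 1 day 0 of 10 passed, against 0.0160% of all genes (3 genes). At 4 days 0 of 10 passed, against 0%. At an unadjusted p under 0.05, limma gave 1 member at 6 h (14.8% of all genes), 3 at 1 day (12.5%) and 3 at 4 days (7.29%). Celastrol and vehicle arrays did not overlap for 1 of 10 members at 6 h (Kiss1, above), where 10.3% of all genes did not overlap. They did not overlap for 2 of 10 at 1 day (Kiss1 above, Vip below), where the share of all genes was 11.0%, and for 0 of 10 at 4 days, where it was 3.50%. The mean was lower with celastrol for 8 of the 10 members at 6 h, with a median difference of -0.085, while 52.8% of all genes were higher and their median was 0.0072. It was higher for 8 of 10 at 1 day, with a median of 0.065, beside 54.1% and 0.0086 for all genes, and for 8 of 10 at 4 days, with a median of 0.071, beside 49.7% and -0.00053. Averaged over the times, 0 of 10 members passed, as did 0% of all genes (13.5% at an unadjusted p under 0.05, and 1 member, Kiss1), and 8 of 10 members were higher, as were 53.3% of all genes.

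**Figure D1:**
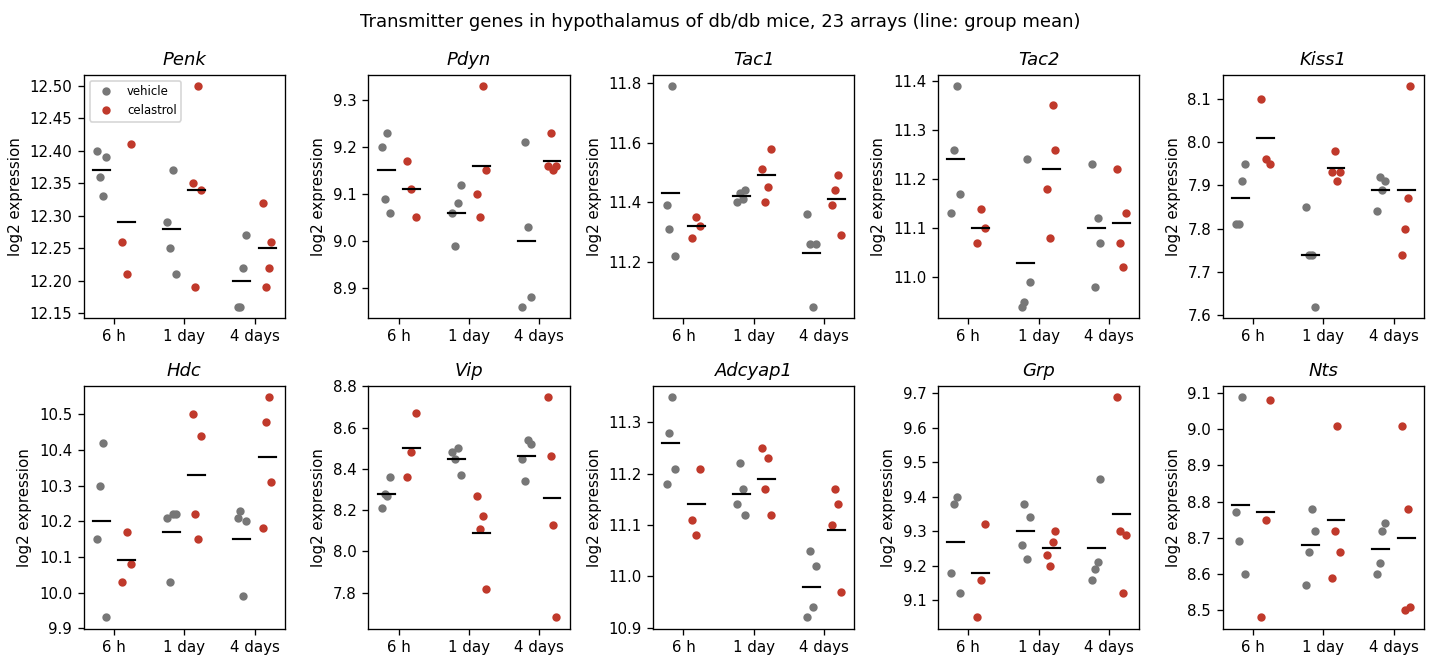
Log2 expression of each of the 10 genes (vertical axis, own scale per gene) by time (horizontal axis) in vehicle (grey) and celastrol (red) mice. Points are arrays and lines are group means. Kiss1 at 6 h and 1 day and Vip at 1 day have groups that do not overlap, and Vip spreads from 7.68 to 8.75 in celastrol mice at 4 days.

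Penk, the enkephalin precursor, varied little. Its 23 values ran from 12.16 to 12.50, a 1.26-fold range, and its within-group SD of 0.0775 exceeded that of 31.4% of all genes. At 6 h the vehicle arrays read 12.40, 12.36, 12.33 and 12.39 and the celastrol arrays 12.26, 12.21 and 12.41. One celastrol array was above all vehicle arrays and the other two were below them. The difference was -0.078 ± 0.0611 (SE, adjusted p = 0.544, limma), followed by 0.061 at 1 day (adjusted p = 0.695) and 0.042 at 4 days (adjusted p = 0.942). Among vehicle mice the mean was 12.37 ± 0.0306 (SD, n = 4) at 6 h, 12.28 ± 0.0687 at 1 day and 12.20 ± 0.0522 at 4 days. The 4-day vehicle arrays, at 12.16, 12.16, 12.22 and 12.27, all lay below the 6-h vehicle arrays. The time effect in vehicle mice missed the threshold (adjusted p = 0.124, limma F test).

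Pdyn, the dynorphin precursor, had its largest celastrol difference at 4 days. The vehicle arrays then read 8.86, 9.21, 9.03 and 8.88 and the celastrol arrays 9.16, 9.23, 9.15 and 9.16. The celastrol arrays lay close together, with 3 of the 4 vehicle arrays below them and 1 within their range. The difference was 0.18 ± 0.0674 (95% interval 0.037 to 0.32), with an adjusted p of 0.536. At 1 day the difference was 0.094 (adjusted p = 0.59), and at 6 h it was -0.036 (adjusted p = 0.827). The mean difference over the times was 0.078 (95% interval -0.0046 to 0.16, adjusted p = 0.394).

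Tac1 encodes substance P and neurokinin A, peptides of the NK1 and NK2 receptors. One vehicle array at 6 h read 11.79, the highest of all 23, and the other three read 11.39, 11.31 and 11.22. The 6-h celastrol arrays read 11.28, 11.35 and 11.32, within the vehicle range. The difference at 6 h was -0.11 ± 0.0929 (adjusted p = 0.574), and 0.012 without the vehicle array at 11.79. The 1-day difference was 0.065 (adjusted p = 0.801). At 4 days the vehicle arrays read 11.36, 11.26, 11.05 and 11.26 and the celastrol arrays 11.39, 11.44, 11.49 and 11.29. Of the 4 celastrol arrays, 3 were above all vehicle arrays. The difference was 0.17 ± 0.086 (95% interval -0.0058 to 0.35, adjusted p = 0.699). Vehicle means were 11.43, 11.42 and 11.23 at 6 h, 1 day and 4 days, and celastrol means 11.32, 11.49 and 11.41. The time effect did not pass in vehicle mice (adjusted p = 0.188, limma F test).

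Tac2, the neurokinin B precursor, had its groups in a different order at 6 h and at 1 day. At 6 h the vehicle arrays read 11.13, 11.26, 11.39 and 11.17 and the celastrol arrays 11.07, 11.14 and 11.10. At 1 day the vehicle arrays read 10.94, 10.95, 11.24 and 10.99 and the celastrol arrays 11.18, 11.08, 11.35 and 11.26. Vehicle was the higher group at 6 h and celastrol the higher at 1 day, with overlap at both times. The differences were -0.13 ± 0.0785 at 6 h (adjusted p = 0.421), 0.19 ± 0.0726 at 1 day (adjusted p = 0.301) and 0.008 ± 0.0726 at 4 days (adjusted p = 0.995). The test that the celastrol difference itself varied with time gave an adjusted p of 0.3. No member passed that test (0 of 10, against 0.0588% of all genes, or 11 genes, by limma, and 3 members against 2440 genes at an unadjusted p under 0.05, 13.0% of all). The vehicle mice themselves differed between these times, at 1 day minus 6 h, by -0.21 (95% interval -0.36 to -0.056), and the vehicle time effect had an adjusted p of 0.131. Without the vehicle 1-day array at 11.24, that adjusted p was 0.0499.

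Kiss1, the kisspeptin precursor, was the member whose celastrol arrays stood apart at more than 1 time. At 6 h the vehicle arrays read 7.81, 7.81, 7.91 and 7.95 and the celastrol arrays 8.10, 7.96 and 7.95. Every celastrol array was above every vehicle array, the closest pair agreeing to the second decimal. The difference was 0.14 ± 0.071 (95% interval -0.012 to 0.28, adjusted p = 0.372). At 1 day the vehicle arrays read 7.85, 7.74, 7.74 and 7.62 and the celastrol arrays 7.93, 7.98, 7.91 and 7.93. All 4 celastrol arrays were again above all vehicle arrays. The difference was 0.20 ± 0.0658 (95% interval 0.062 to 0.33, 1.15-fold) with an adjusted p of 0.234. By 4 days the vehicle arrays read 7.84, 7.92, 7.89 and 7.91 and the celastrol arrays 7.74, 7.80, 7.87 and 8.13. The celastrol group was then the wider one, with arrays above and below all vehicle arrays, and the difference was -0.0052 ± 0.0658 (adjusted p = 0.997). The mean difference over the times was 0.11 ± 0.039 (adjusted p = 0.257).

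The Kiss1 value moved with a property of the whole array. After group means were removed, it fell with the array's SD over genes (r = -0.726, permutation p = 0.00468, adjusted over 10 members p = 0.0468, rho = -0.66 with permutation p = 0.00447 and adjusted p = 0.0447, and r = -0.591 without the 2 farthest arrays, n = 23). This relation was chosen after the values were seen, and it was the one past 0.05 among the 10. No share of all genes with such a relation is given here, so it is not shown to be particular to Kiss1. With the array SD as a covariate, also added after seeing the data, the Kiss1 difference was -0.028 at 6 h and 0.067 at 1 day. The array SD itself did not overlap between treatments at these times. At 6 h it ran from 1.922 to 1.943 in vehicle and from 1.870 to 1.917 in celastrol mice. At 1 day it ran from 1.933 to 1.962 and from 1.905 to 1.932. Array SD and treatment therefore cannot be told apart in that fit. With array weights, Kiss1 at 1 day was 0.21 with an adjusted p of 0.0449, in a fit that called 406 genes. All Kiss1 values lay under the median of their array. The table holds no detection call, so whether the probe set read above background was not tested.

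Hdc makes histamine from histidine and marks the histaminergic neurons. At 6 h the vehicle arrays read 10.15, 10.30, 10.42 and 9.93 and the celastrol arrays 10.03, 10.17 and 10.08. At 1 day the vehicle arrays read 10.21, 10.03, 10.22 and 10.22 and the celastrol arrays 10.50, 10.22, 10.15 and 10.44. After 4 days the vehicle arrays read 10.21, 10.23, 9.99 and 10.20 and the celastrol arrays 10.18, 10.48, 10.55 and 10.31. Celastrol values lay inside the vehicle range at 6 h, while at 1 day and at 4 days 3 of 4 were above all vehicle arrays, 1 of them at 1 day by less than the second decimal. The differences were -0.11 ± 0.104 (adjusted p = 0.621), 0.16 ± 0.0958 (adjusted p = 0.514) and 0.23 ± 0.0958 (95% interval 0.027 to 0.42, adjusted p = 0.609). Vehicle means stayed between 10.15 and 10.20, while the celastrol means were 10.09 ± 0.07 (SD, n = 3), 10.33 ± 0.167 (n = 4) and 10.38 ± 0.165 (n = 4). The time effect in celastrol mice did not pass for Hdc (adjusted p = 0.244) or any other member (0 of 10, against 0.246% of all genes, or 46 genes, with 2 members and 16.4% of genes at an unadjusted p under 0.05). The other genes of the histamine system gave no call between treatments. Hrh2, the H2 receptor, came closest at 6 h, with 8.24 ± 0.0467 (SD, n = 4) in vehicle and 8.42 ± 0.0816 (n = 3) in celastrol mice (difference 0.18, adjusted p = 0.181).

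Vip and Adcyap1 encode closely related peptides that share the receptors VPAC1 and VPAC2, while PACAP also has its own receptor, PAC1. Transcription of both genes is known to respond to cAMP signalling. Their sequences 5′ of the start site are shown because these were the members with the largest and the smallest within-group SD of the 10, and both windows hold a half-site of the cAMP response element (TGACG, in capitals). They run 5′ to 3′ over the 250 bases before a RefSeq start site (GRCm38.p6, plus strand), at chr17:93198767-93199016 for Adcyap1 and chr10:5638968-5639217 for Vip, and come from the reference, not from these mice.
Adcyap1: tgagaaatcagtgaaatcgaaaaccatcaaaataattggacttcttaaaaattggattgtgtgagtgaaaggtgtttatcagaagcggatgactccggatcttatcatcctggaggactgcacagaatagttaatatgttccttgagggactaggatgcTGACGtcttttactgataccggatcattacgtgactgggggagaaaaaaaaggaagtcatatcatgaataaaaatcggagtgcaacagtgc
Vip: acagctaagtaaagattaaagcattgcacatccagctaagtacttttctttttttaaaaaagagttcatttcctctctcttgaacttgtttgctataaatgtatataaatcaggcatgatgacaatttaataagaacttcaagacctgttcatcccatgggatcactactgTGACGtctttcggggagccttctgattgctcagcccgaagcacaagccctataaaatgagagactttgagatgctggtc
The half-site lies at position -91 from the start site in Adcyap1, which has another start site downstream, and at -79 in Vip. Both strands were searched. Of the 8 members in the promoter table, 5 held TGACG or its reverse complement CGTCA (Adcyap1, Kiss1, Nts, Tac1 and Vip), against 17.8% of all 32851 windows of the same length. The TATA box letters TATAAA or their reverse complement TTTATA were in 2 of 8 (Vip, and Adcyap1 only at its downstream start site) against 12.4%, and the full palindrome TGACGTCA, which contains the half-site, in 0 of 8 against 1.55%. Members were counted by gene, a match in any window sufficing, and Pdyn and Adcyap1 have 2 windows each. The background share is by window, so the units differ. A match is a match of letters and was not tested as a binding site.

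Pooled over the 6 groups, Vip varied more from array to array than any other member. Its within-group SD of 0.223 exceeded that of 98.9% of all genes, and its 23 values spanned a 2.1-fold range. That spread lay in the celastrol groups, with SDs of 0.159, 0.193 and 0.46 at 6 h, 1 day and 4 days. The vehicle SDs were 0.0622, 0.0559 and 0.0924, beside a median pooled SD of 0.0942 over all genes. The limma SEs rest on the spread pooled over all groups. At 6 h the vehicle arrays read 8.21, 8.28, 8.27 and 8.36 and the celastrol arrays 8.36, 8.48 and 8.67. At 1 day the vehicle arrays read 8.48, 8.45, 8.50 and 8.37 and the celastrol arrays 8.27, 8.11, 8.17 and 7.82. At 1 day all 4 celastrol arrays were below all vehicle arrays, whereas at 6 h 2 of 3 were above all of them. At 4 days the celastrol arrays read 8.75, 8.46, 8.13 and 7.68, from above to below the vehicle arrays at 8.45, 8.34, 8.54 and 8.52. The differences were 0.22 ± 0.152 (adjusted p = 0.49), -0.36 ± 0.141 (95% interval -0.65 to -0.066, 1.28-fold lower, adjusted p = 0.307) and -0.21 ± 0.141 (adjusted p = 0.826). The Vip difference between times had an adjusted p of 0.328. All 1-day Vip values lay under the lowest array median of 8.57. Leaving out the 1-day celastrol array at 7.82 moved the 1-day difference to -0.27, and the array SD as a covariate moved it to -0.087. As given for Kiss1, array SD and treatment cannot be told apart at 1 day.

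Vipr2, which encodes VPAC2 and is a marker of the suprachiasmatic nucleus, was lower in the same 1-day group. It read 8.93 ± 0.0543 (SD, n = 4) in vehicle and 8.66 ± 0.166 (n = 4) in celastrol mice, a difference of -0.28 with an adjusted p of 0.191. The 7 markers of that nucleus, Vipr2 among them, had a mean of 9.51 in vehicle mice at 1 day, with arrays from 9.46 to 9.56, and of 9.43 in celastrol mice, with arrays from 9.37 to 9.49. The differences of the single markers at 1 day ran from -0.28, that of Vipr2, to 0.12. Their median was -0.044, with 6 lower and 1 higher. The part of these markers in the Vip difference was not tested. Across arrays, with group means removed, Vip and Vipr2 had r = 0.517 (permutation p = 0.0308, adjusted over 30 relations p = 0.185) and rho = 0.754 (permutation p = 0.0004, adjusted p = 0.00885). Without the 2 arrays farthest from the median of Vip after group means were removed, r was 0.81. The other markers of that nucleus did not pass with Vip by r or rho, with r = 0.495 for Rorb, 0.444 for Rgs16, 0.413 for Avp, 0.0275 for Prok2, -0.179 for Lhx1 and -0.182 for Six6. These 30 relations of members with markers of their nucleus were chosen after values were seen.

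**Figure D2:**
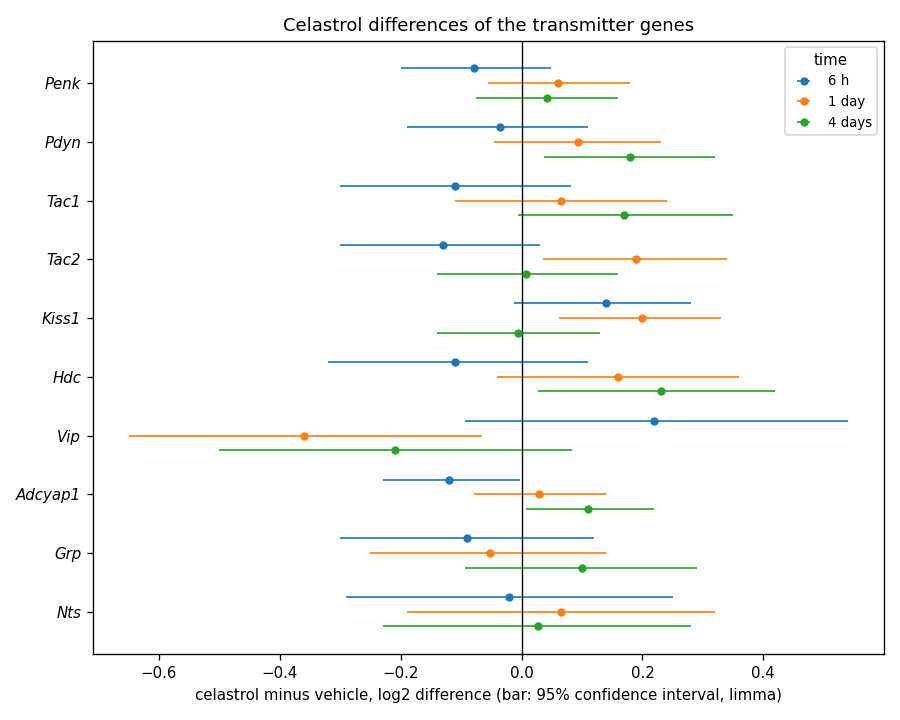
Celastrol minus vehicle, as a log2 difference (horizontal axis), for each gene (vertical axis) at 6 h, 1 day and 4 days. Points are limma estimates and bars their 95% intervals, not corrected for the number of genes. Vip has the widest bars, and its 1-day estimate of -0.36 is the farthest from 0.

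Adcyap1 had the smallest within-group SD of the members, 0.0676, which exceeded that of 19.9% of all genes. It was the one member past the threshold with time in vehicle mice. The vehicle arrays read 11.18, 11.28, 11.35 and 11.21 at 6 h, 11.14, 11.22, 11.17 and 11.12 at 1 day, and 10.92, 11.05, 10.94 and 11.02 at 4 days. Every 4-day array was below every earlier vehicle array, as it was for 3.11% of all genes. Group means were 11.26 ± 0.0762 (SD, n = 4), 11.16 ± 0.044 (n = 4) and 10.98 ± 0.0604 (n = 4). Adcyap1 fell between 6 h and 4 days 1.21-fold, by a log2 difference of -0.27 ± 0.0515 (95% interval -0.38 to -0.17). Before any correction, that interval also lay below 0 for Penk (-0.28 to -0.048), Tac1 (-0.37 to -0.015) and Pdyn (-0.29 to -0.01). For Adcyap1 the F test over the 3 times gave an adjusted p of 0.00873 (limma). It was 1 of 10 members past the threshold, against 8.83% of all genes (1651 genes), so the count of members is near the background. At an unadjusted p under 0.05 there were 3 of 10 members and 28.5% of all genes. Among the vehicle groups, the means of the choroid plexus and of the striatum markers were highest at 4 days. The mean of 9 choroid plexus markers was 7.60, 7.58 and 7.76 in vehicle mice at 6 h, 1 day and 4 days. The arrays ran from 7.51 to 7.71, 7.44 to 7.70 and 7.66 to 7.91. Kcnj13, 1 of the 9, had vehicle means of 7.61, 7.37 and 8.78 ± 0.795 (SD, n = 4), so the rise rested largely on that gene. The mean of 15 striatum markers was 9.52, 9.52 and 9.57 in vehicle mice. With group means kept, Adcyap1 had r = -0.589 with the choroid plexus markers (permutation p = 0.00335) and r = -0.576 with the striatum markers (permutation p = 0.00417), each with an adjusted p of 0.0418 over 50 relations. With group means removed, r was -0.227 (adjusted p = 0.796) and -0.525 (adjusted p = 0.548). With the mean of striatum and thalamus markers as a covariate, the time effect of Adcyap1 had an adjusted p of 0.01, and the part of the choroid plexus markers was not tested.

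In celastrol mice the Adcyap1 arrays read 11.11, 11.08 and 11.21 at 6 h, 11.25, 11.17, 11.23 and 11.12 at 1 day, and 11.10, 11.17, 11.14 and 10.97 at 4 days. The groups overlapped, and time gave an adjusted p of 0.513. Against vehicle the differences were -0.12 ± 0.0556 at 6 h (adjusted p = 0.329), 0.029 ± 0.0515 at 1 day (adjusted p = 0.859) and 0.11 ± 0.0515 at 4 days (adjusted p = 0.643). The difference between times did not pass (adjusted p = 0.286), so an unlike course in vehicle and celastrol mice was not shown. The array SD over genes was also lowest at 4 days among vehicle groups, as given above. With it as a covariate, the vehicle time effect of Adcyap1 had an adjusted p of 0.215, in a fit that called 2 genes instead of 1651. The array SD ran from 1.886 to 1.907 in vehicle mice at 4 days. It ran from 1.922 to 1.943 at 6 h and from 1.933 to 1.962 at 1 day. The 4-day arrays did not overlap the earlier ones, so array SD and time cannot be told apart in that fit.

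**Figure D3:**
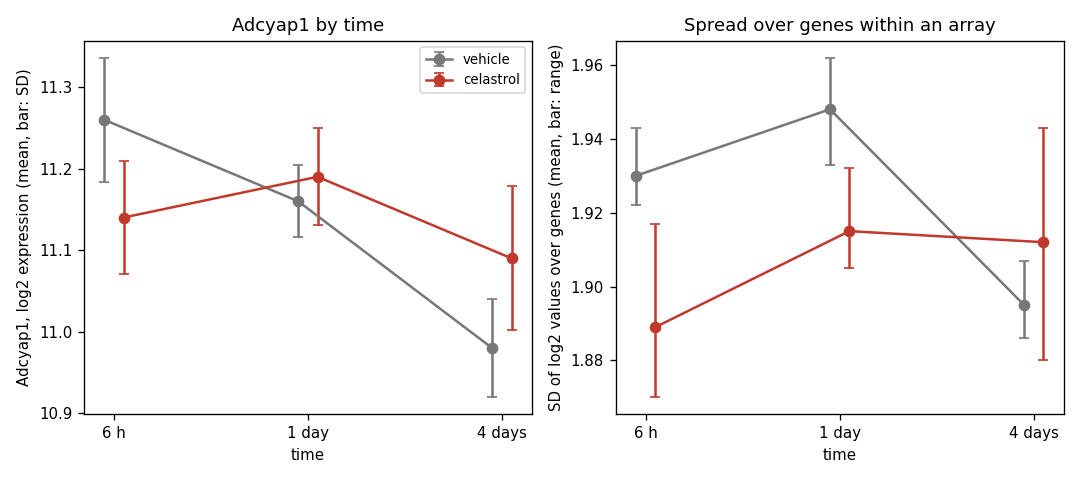
Left, Adcyap1 as mean log2 expression (bars: SD over arrays) at each time in vehicle (grey) and celastrol (red) mice; right, the SD of log2 values over genes within an array, as group mean (bars: lowest to highest array). Lines join groups of different mice. Adcyap1 goes from 11.26 to 10.98 in vehicle mice, and the array SD is 1.895 in the 4-day vehicle group.

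Grp, the gastrin-releasing peptide precursor, had overlapping groups at every time. The lowest, median and highest arrays were 9.12, 9.28 and 9.40 in vehicle and 9.05, 9.16 and 9.32 in celastrol mice at 6 h. At 4 days the celastrol arrays read 9.69, 9.30, 9.12 and 9.29, and the vehicle arrays 9.16, 9.19, 9.21 and 9.45. The array at 9.69 was the highest of all 23, and without it the 4-day difference was -0.014. The differences were -0.091 (adjusted p = 0.677), -0.052 at 1 day (adjusted p = 0.86) and 0.10 ± 0.0933 (adjusted p = 0.894). Grp is also made in cortex and amygdala. With the mean of 8 markers of those regions, and group means removed, it had r = 0.808 (permutation p = 0.00143, adjusted over 50 relations p = 0.0715). The rho was 0.685 (permutation p = 0.00262, adjusted p = 0.131). Neither passed 0.05 after adjustment, and r was above 0 in 6 of 6 groups. Without the 2 arrays farthest from the median of Grp after group means were removed, r was 0.483, so much of it rested on those arrays. The marker mean at 4 days ran from 7.96 to 8.38 in celastrol and from 8.07 to 8.37 in vehicle mice. Slc17a7, 1 of the 8, read 9.27 on the array with Grp at 9.69. It read 7.80, 7.55 and 7.80 on the other celastrol arrays at 4 days. The part of those markers in the Grp values was not tested.

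Nts, the neurotensin precursor, had no celastrol difference larger than its SE. Its within-group SD of 0.192 exceeded that of 97.7% of all genes. At 6 h the vehicle arrays read 8.77, 8.69, 9.09 and 8.60 and the celastrol arrays 8.48, 8.75 and 9.08, nearly the same range. At 4 days the celastrol arrays lay on both sides of the vehicle group, at 9.01, 8.50, 8.78 and 8.51 against 8.60, 8.63, 8.72 and 8.74 for vehicle. The differences were -0.02 ± 0.132 (95% interval -0.29 to 0.25, adjusted p = 0.951), 0.066 ± 0.122 (adjusted p = 0.865) and 0.027 ± 0.122 (95% interval -0.23 to 0.28, adjusted p = 0.988).

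Ordered by mean, the 6 groups of each gene gave 5 neighbouring pairs. All 5 overlapped for 9 of the members, and 4 of 5 for Vip. The highest and lowest groups did not overlap for 6 of 10 members (Penk, Hdc, Tac1, Kiss1, Vip and Adcyap1). These are the outermost of 6 groups, and the same held for 45.5% of all genes. The groups were vehicle at 6 h over vehicle at 4 days for Penk and Adcyap1, celastrol at 4 days over celastrol at 6 h for Hdc, celastrol at 1 day over vehicle at 4 days for Tac1, celastrol at 6 h over vehicle at 1 day for Kiss1, and celastrol at 6 h over celastrol at 1 day for Vip. For Pdyn, Tac2, Nts and Grp even the outer groups overlapped.

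The receptors of these peptides, the enzymes that cut and load them and those that degrade them gave no celastrol call either. Of 51 such genes measured, 0 passed at 6 h, 1 day or 4 days by limma, and 1, 5 and 4 had an unadjusted p under 0.05, beside 14.8%, 12.5% and 7.29% of all genes. Against those shares the counts do not set these genes apart, and single values follow as a description. At 1 day the 5 were lower with celastrol: Vipr2, given above, Tacr3, the neurokinin B receptor (-0.20, adjusted p = 0.348), Kiss1r, the kisspeptin receptor (-0.13, adjusted p = 0.367), the carboxypeptidase gene Cpd (-0.12, adjusted p = 0.339) and the neurolysin gene Nln (-0.10, adjusted p = 0.389). At 4 days Cpd and Nln were higher, at 0.16 (adjusted p = 0.37) and 0.13 (adjusted p = 0.481), as was the glutaminyl cyclase gene Qpct at 0.15 (adjusted p = 0.644), and Tacr2, the neurokinin A receptor, was lower at -0.36 (adjusted p = 0.454). The median difference of the 51 genes was -0.0088 at 6 h, -0.019 at 1 day and 0.0014 at 4 days.

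With time in vehicle mice, 2 of the 51 genes passed, where 8.83% of all genes did, so the count does not exceed the background. Maob, which encodes monoamine oxidase B and acts in the breakdown of histamine's methylated product, fell 1.28-fold between 6 h and 4 days, from 11.12 ± 0.121 (SD, n = 4) over 11.00 ± 0.0232 to 10.77 ± 0.12 (n = 4; adjusted p = 0.0077, limma F test). Its celastrol means were 11.01, 10.90 and 10.83. Oprk1, the kappa opioid receptor on which dynorphin acts, was highest at 1 day, at 9.62 ± 0.0398 (n = 4) against 9.44 ± 0.0688 at 6 h and 9.42 ± 0.0858 at 4 days (adjusted p = 0.0293). Its celastrol means were 9.37, 9.53 and 9.51. Of the genes on the marker lists, Maob (1 of 6 tuberomammillary markers) and 6 others passed with time in vehicle mice, beside 8.83% of all genes. They were Ghrhr (1 of 8 pituitary markers), Kcnj13 and Tmem72 (2 of 9, choroid plexus), Rgs9 (1 of 15, striatum), Nefl (1 of 8, neurons) and Gjb6 (1 of 6, astrocytes). The other marker lists had 0, among them 0 of 22 hypothalamic and 0 of 14 thalamic markers.

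Members were also compared with each other over the arrays, with group means removed. Of 45 pairs, 0 passed 0.05 after adjustment. Hdc and Tac1 came closest, with r = 0.703 (permutation p = 0.00335, adjusted p = 0.151) and rho = 0.72 (permutation p = 0.00179, adjusted p = 0.0805). Their r was 0.672 without the 2 arrays farthest from the median of Hdc after group means were removed. With group means kept and arrays permuted across all groups, that pair had r = 0.661 (permutation p = 0.00057, adjusted p = 0.0256). Of 50 relations with markers of striatum, thalamus, cortex and amygdala, pituitary and choroid plexus, 0 passed. With group means kept, 5 did: those of Adcyap1 given above, Grp with cortex and amygdala (r = 0.717), Hdc with thalamus (r = -0.574) and Tac1 with striatum (r = -0.575).

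Among the 30 relations with markers of the members' own nuclei, chosen after values were seen, Hdc rose with Wif1, a marker of the tuberomammillary nucleus: r = 0.704 (permutation p = 0.00251, adjusted p = 0.0376), r = 0.567 without the 2 farthest arrays, and rho = 0.557 (permutation p = 0.0209, adjusted p = 0.157). The vesicular monoamine transporter Slc18a2, on the same list, had r = 0.51 with Hdc (permutation p = 0.0213, adjusted p = 0.16). The remaining markers of that list had r = 0.361 (Hcrtr2), 0.287 (Prph), 0.285 (Maob) and -0.362 (Hrh3), none past 0.05. Tac2 fell as Sox14 rose (r = -0.723, permutation p = 0.00095, adjusted p = 0.0285; rho = -0.767, permutation p = 0.00059, adjusted p = 0.00885; r = -0.715 without the 2 farthest arrays). Sox14 encodes a transcription factor and stands on the list of arcuate kisspeptin neuron markers. The other markers on that list did not pass with Tac2: r was 0.272 for Tacr3, 0.286 for Esr1, 0.307 for Pgr and 0.0125 for Nhlh2. With Kiss1, 0 of the 5 markers passed. Wif1, from 7.85 to 8.26, and Sox14, from 8.06 to 8.50, lay under the lowest array median of 8.57 on every array.

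**Figure D4:**
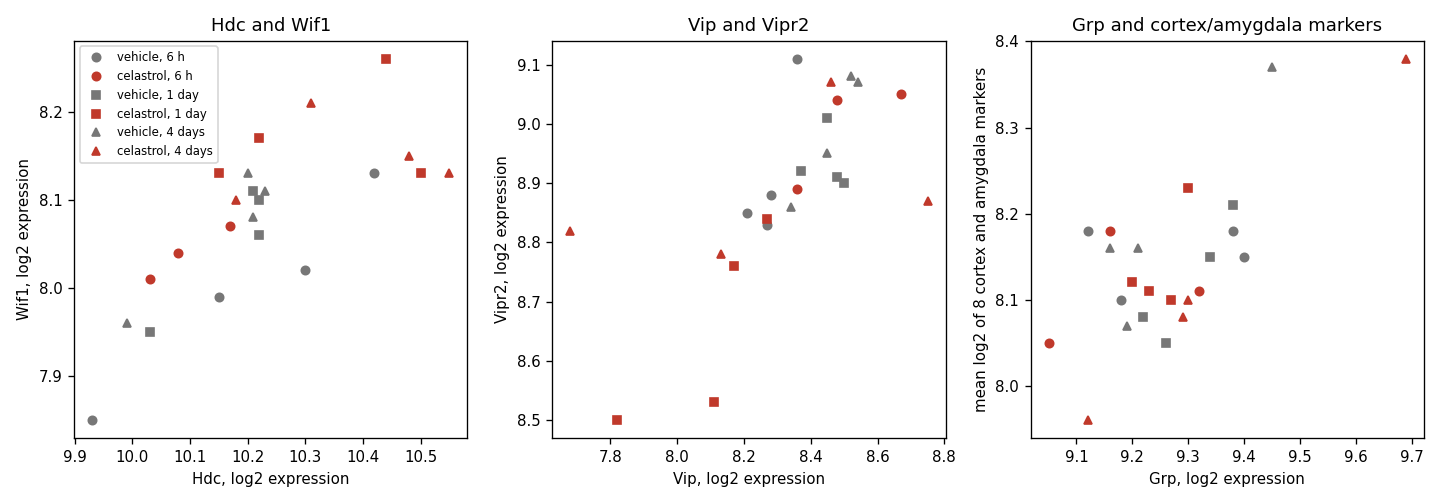
Each point is 1 of 23 arrays, with a member's log2 expression on the horizontal axis and, on the vertical axis, Wif1 (left), Vipr2 (middle) and the mean of 8 cortex and amygdala markers (right). Colour gives treatment and shape gives time. Hdc and Wif1 rise together, 2 of the celastrol 1-day arrays are lowest for Vipr2, and the array highest for Grp is also high for the markers.

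Over the 23 arrays as deposited, the genes most like Hdc were Wif1 (r = 0.74), the hypothalamic transcription factor gene Bsx (r = 0.682) and Asb4 (r = 0.673). For Penk they were Zfp438 (r = 0.818), Ncoa4 and Rhob, for Pdyn Tmed3 (r = 0.732), Epp13 and Dand5, and for Tac1 Paip1 (r = 0.862), Ttc9c and Selenof. For Tac2 they were Psmb4 (r = 0.805), Pdrg1 and Phf5a, and for Kiss1 the odorant receptor gene Olfr572 (r = 0.845), Ccdc102a and Gpa33. Vip was most like Sh3bp5 (r = 0.713), Fam122b and Ddx21, and Adcyap1 most like Morn2 (r = 0.845), 6720489N17Rik and Psmd5. Grp was most like Syt17 (r = 0.777), Fn3k and Thumpd1, and Nts most like Aimp1 (r = 0.746), Fam210a and U2af1l4. These are the highest of correlations with all other genes tested, over arrays that share treatment, time and processing, and are given as a description.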

How the data were processed

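RNA was labelled with a whole-transcript kit, per the labels. The deposited series table holds log2 expression values per probe set, and the authors made them with RMA per the submitters' processing notes. Of 23492 probe sets, 20228 name 1 gene in the platform annotation, 1399 several and 1865 none, and for a gene with several (809 genes) the one of highest mean was kept. The values were used without further scaling. One limma fit (limma 3.58.1, R 4.3.3) of 6 group means over all 23 arrays and 18704 genes gave every comparison, 2-sided, with Benjamini-Hochberg adjustment over all genes. Scripts were tested on simulated data. Correlations used Python 3.11.15 with 100000 permutations. The main ones used values minus group means, permuted within groups. Where group means were kept, arrays were permuted across all 6 groups, so differences by treatment and time enter those p-values. Arrays give no read depth, so the number of arrays limits precision, and p-values measure only the spread between these samples. The genes and lists were chosen with earlier results of these data known. Named genes are all 10 members, their 3 most alike genes, pathway and marker genes past 0.05, and pathway genes of smallest p at each time; other marker genes (such as Wif1, Sox14, Slc18a2, Pmch and Hcrt) were named after their values were seen. Promoter windows are those of RefSeq (GRCm38.p6). Penk and Grp have no entry in the promoter table. Alternatives tried were a robust variance trend, a level filter, quantile normalization, centring, a replicate block, array weights, a tissue covariate, mean probe sets, fits of 2 groups alone, leaving out each array and, added after seeing the data, the array SD as a covariate.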

Additional observations from a re-analysis of the deposited data

Results flagged for a closer look

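In groups of 4, an array was compared with the rest of its group. Of 50 such groups of the 10 genes, 4 held an array whose distance from the nearest other array exceeded 0.829 of the group's range, where chance gives about 1 in 20. Pdyn in celastrol mice at 4 days had a highest array of 9.23, the next being 9.16. Hdc had a lowest array of 10.03 in vehicle mice at 1 day, the next being 10.21, and of 9.99 in vehicle mice at 4 days, the next being 10.20. Tac2 in vehicle mice at 1 day had a highest array of 11.24, the next being 10.99.

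For 4 genes, every celastrol array lay on one side of the vehicle mean at one time and on the other side at another, as it did for 13.5% of all genes. Those single contrasts were not tested, and the F test over all 3 times is given beside each. Hdc had a celastrol difference that was apart by -0.34 at 6 h against 4 days (adjusted p = 0.419), and Tac1 by -0.28 at the same times (adjusted p = 0.488). Tac2 was apart by -0.32 at 6 h against 1 day (adjusted p = 0.3), and Vip by 0.58 at 6 h against 1 day (adjusted p = 0.328).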

How the results depend on the processing

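Of 2270 recomputed values of the 10 genes, 2222 kept their direction and their side of the threshold, 45 reversed, 2 moved past the threshold and 1 moved back over it. The 1 lost call was Adcyap1 with time in vehicle mice, at an adjusted p of 0.215 with the array SD as a covariate. That fit left 0 members and 2 genes past the threshold and, as given above, cannot tell array SD from time. Under the other alternatives the adjusted p of Adcyap1 ran from 0.00245 to 0.032. Array weights brought 1 member, Kiss1 at 1 day, past it (adjusted p = 0.0449).

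The number of genes called varied more, and the cause was not tested. For celastrol at 1 day, 3 genes became 0 with a robust variance trend, 1 with quantile normalization, 406 with array weights and 1 with the array SD. The celastrol difference between times, with 11 genes, gave 0 with the robust trend, 5 without the lowest tercile of genes, 0 with quantile normalization, 6 with the striatum and thalamus covariate and 0 with the array SD. Time in vehicle mice, with 1651 genes, gave 734 with quantile normalization and 2491 with array weights. Time in celastrol mice, with 46 genes, gave 30 with quantile normalization, 26 after centring and 96 with array weights. Among correlations, keeping group means put 1 pair of members and 5 relations with neighbouring tissue past 0.05, and quantile normalization 1 of the latter.

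Replicate numbers are shared between groups, and whether they pair the arrays was not settled. Deviations of same-numbered arrays had r from -0.0826 to 0.188, above 0.1 in 2 of 11 pairs, both at 6 h. Arrays of unlike number were not compared. With the replicate number as a block, celastrol gave 1 gene at 1 day, 1 at 4 days, 1 for the mean effect and 6 between times, and Adcyap1 with time in vehicle mice kept an adjusted p of 0.0105.

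Leaving out each array in turn gave 0 to 2 genes at 6 h, 0 to 7 at 1 day, 0 to 39 at 4 days, 0 to 9 for the mean effect, 0 to 118 between times, 664 to 1933 with time in vehicle mice and 0 to 200 with time in celastrol mice. The highest came without vehicle replicate 4 of 4 days for 39 genes and without celastrol replicate 4 of 4 days for 118. Members past the threshold with time in vehicle mice numbered 1 to 2 (Tac2 without vehicle replicate 3 of 1 day), and relations with neighbouring tissue 0 to 1.

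None of the reversed differences was past the threshold in either fit, and they include Kiss1 and Tac1 at 6 h, Grp at 6 h and 4 days and the mean effect of Vip. At 6 h Pdyn was 0.003 with quantile normalization, Kiss1 -0.028 and Grp 0.076 with the array SD, and Nts 0.039 with array weights and 0.22 with the array SD. Grp at 1 day was 0.083 with the array SD. At 4 days Tac2 was -0.0036 with quantile normalization, -0.0027 with array weights, -0.031 with the striatum and thalamus covariate and -0.0047 with the array SD, Kiss1 was 0.026, 0.014 and 0.064 with quantile normalization, that covariate and the array SD, and Nts was -0.073 with the array SD. For the mean effect, the tissue covariate gave Tac1 -0.0031, Tac2 -0.0067 and Grp 0.0078, quantile normalization gave Grp 0.0025, and the array SD gave Vip 0.04 and Grp 0.063. Without single arrays, Tac1 at 6 h ran from -0.18 to 0.012, Nts from -0.17 to 0.12 at 6 h, -0.023 to 0.12 at 1 day and -0.076 to 0.094 at 4 days, and at 4 days Tac2 from -0.032 to 0.049, Kiss1 from -0.088 to 0.043 and Grp from -0.014 to 0.18. The mean effect then ran from -0.01 to 0.026 for Penk, -0.027 to 0.072 for Nts, -0.052 to 0.012 for Grp and -0.0048 to 0.022 for Adcyap1. With 3 or 4 arrays a group, the 95% intervals of 7 of the 30 celastrol differences lay to one side of 0, before any correction. The missed thresholds do not show that values were equal, and signal over background could not be judged, since the table holds no detection call.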
